A study of Mus musculus with 8 samples.

Results

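The insulin-like growth factor (Igf) system was described here through 9 genes: the ligands Igf1 and Igf2, the receptor Igf1r, and the binding proteins Igfbp2, Igfbp3, Igfbp4, Igfbp5, Igfbp6 and Igfbp7. The members were chosen by symbol, as 9 of the 56465 features listed, and each symbol had exactly 1 row. The gene set was proposed with the results of these libraries known, so every difference between genotypes given for its members is a description and no test. Messenger RNA was sequenced from 4 detached retinas of mice that express human transferrin, which transports iron in plasma (TG, replicates 2, 5, 6 and 8), and from 4 detached retinas of wild-type mice (WT, replicates 3, 4, 5 and 7). All 8 retinas came from C57Bl/6J mice, were detached by 10 µl of sodium hyaluronate injected under the retina, and were taken 4 days later. The TG group held 2 males and 2 females, and 2 right and 2 left eyes. Among the WT retinas were 3 right eyes and 1 left eye, from 3 males and 1 female. TG 2, TG 5, WT 3, WT 4 and WT 5 were the males, and TG 6, TG 8 and WT 7 the females. The sources used here give neither the promoter that drives the transgene nor the age of the mice. All groups were detached, so no value below compares detached with attached retina.

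Igf1 and Igf2 are small secreted hormones related to insulin. Both bind the receptor tyrosine kinase Igf1r, which signals through insulin receptor substrates to the kinase Akt and through Ras to the MAP kinases, and so promotes growth and survival. The Igfbp proteins hold Igfs outside the cell, where they can shield them from the receptor, store them in the matrix or carry them, and proteases release the ligand by cutting the binding protein. In the retina Igf1 is known as a survival factor for neurons and as a factor of vessel growth.

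Among the 9 genes the largest fold difference was that of Igfbp3, whose mean over the TG retinas was 3.27 times that over the WT retinas. Igfbp4 was the next among the genes with an interval above 0, while Igf1, Igf2, Igf1r, Igfbp2, Igfbp5, Igfbp6 and Igfbp7 had intervals that included 0. In all 9 genes at least 1 TG retina lay within the range of the WT retinas. None of the 9 passed the test across all features, in which 0.0101% of features were called.

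The promoter windows of 3 binding proteins are shown because these genes stand at the ends of the range, Igfbp3 and Igfbp4 with the highest differences between genotypes and Igfbp7 with the highest level and the lowest difference. Each window runs from 250 bases before the start of transcription to 50 bases after it, 5′ to 3′ on the gene's own strand, taken from RefSeq on GRCm38.p6. Igfbp3 is on the minus strand at chr11:7213874-7214173, Igfbp4 on the plus strand at chr11:99040994-99041293, and Igfbp7 on the minus strand at chr5:77407996-77408295. Capitals mark matches, on either strand, to the TATA-like letters TATANA in the Igfbp3 and Igfbp4 windows, and to the GC box GGGCGG or the hypoxia element core ACGTG in the Igfbp7 window.
Igfbp3: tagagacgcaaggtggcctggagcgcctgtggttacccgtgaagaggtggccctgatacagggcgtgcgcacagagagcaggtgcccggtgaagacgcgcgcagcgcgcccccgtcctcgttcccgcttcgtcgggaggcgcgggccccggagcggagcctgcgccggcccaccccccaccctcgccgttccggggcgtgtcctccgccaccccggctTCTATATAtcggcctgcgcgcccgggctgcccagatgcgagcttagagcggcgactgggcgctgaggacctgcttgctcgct
Igfbp4: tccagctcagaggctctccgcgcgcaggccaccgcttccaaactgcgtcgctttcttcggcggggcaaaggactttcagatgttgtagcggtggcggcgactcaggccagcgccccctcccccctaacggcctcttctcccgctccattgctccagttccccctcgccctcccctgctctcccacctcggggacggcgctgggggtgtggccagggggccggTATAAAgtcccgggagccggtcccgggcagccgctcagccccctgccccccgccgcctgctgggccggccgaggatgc
Igfbp7: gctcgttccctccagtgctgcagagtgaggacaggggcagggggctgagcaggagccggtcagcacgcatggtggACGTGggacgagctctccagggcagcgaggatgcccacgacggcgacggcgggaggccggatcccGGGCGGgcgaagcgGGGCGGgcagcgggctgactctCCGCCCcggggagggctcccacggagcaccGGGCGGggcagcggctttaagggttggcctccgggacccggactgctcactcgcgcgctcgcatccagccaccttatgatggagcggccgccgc

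All 3 windows were rich in G and C, at 71.7% in Igfbp3, 71.3% in Igfbp4 and 73.3% in Igfbp7, against a median of 52.7% over all 32851 windows. Igfbp3 and Igfbp4 each had TATA-like letters close to the start site, first matched 32 bases before it in Igfbp3 and 28 bases before it in Igfbp4. The 3 matches in the Igfbp3 window overlap each other. TATANA was found in 24.7% of all windows. Igfbp7 had no such match in its window, but 4 GC boxes, a motif present in 35.7% of windows, and 1 hypoxia element core, present in 19.6%. The search for the CCAAT box, found in 37.4% of windows, matched none of these 3 windows. A match describes letters only and does not show that a factor binds there.

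Library depth was 61535690 to 70540242 counted reads in TG and 68433927 to 75866423 in WT. The mitochondrial share of reads was 22.1, 20.4, 22.3 and 22.1% in TG 2, 5, 6 and 8, against 27.5, 21.9, 24.6 and 27.2% in WT 3, 4, 5 and 7. The rod photoreceptor markers were all present, and rhodopsin had 1422209 to 2278247 normalized reads per library, which fits the retina label. Tissue from outside the neural retina varied between libraries. The summed level of 11 lens markers ran from 276 to 21354 normalized reads in TG and from 156 to 26572 in WT, highest in TG 6 and WT 3. That of 12 pigment epithelium markers ran from 10486 to 45285 in TG and from 9391 to 94452 in WT, highest in TG 2 and WT 3. That of 5 red blood cell markers ran from 14470 to 27131 in TG and from 2635 to 39043 in WT. Cells within the neural retina varied too, with 9 Mueller glia markers at 31722 to 95760 in TG and 24825 to 87221 in WT, highest in TG 8 and WT 7. In whole retina, fewer cells of a type and less RNA per cell cannot be told apart.

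Levels were first compared between the 9 genes per kilobase of annotated exon (GENCODE M21, GRCm38), with means and SDs over all 8 libraries. Igfbp7, a secreted protein of vessel walls that binds Igfs weakly, had the highest level, 4029 ± 1168 normalized reads per kb. Igfbp2 followed at 1956 ± 347 reads per kb and was below Igfbp7 in 8 of 8 libraries, although their ranges overlapped. Igfbp5 at 944 ± 202 and Igfbp4 at 823 ± 209 reads per kb came next, and their order held in 6 of 8 libraries only.

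Igf1 had 192 ± 42.3 reads per kb, below the whole range of Igfbp4. Igfbp3 at 125 ± 108 reads per kb and Igfbp6 at 105 ± 28.1 could not be ordered, since Igfbp3 exceeded Igfbp6 in 3 of 8 libraries. The receptor Igf1r had 52.0 ± 12.6 reads per kb and Igf2 had 46.6 ± 20.7, with Igf1r above Igf2 in 6 of 8 libraries. The ranges of neighbours in this order did not overlap at 2 steps, between Igfbp2 and Igfbp5 and between Igfbp4 and Igf1. Igf1 was above Igf2 by 192 against 46.6 reads per kb.

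**Figure D1:**
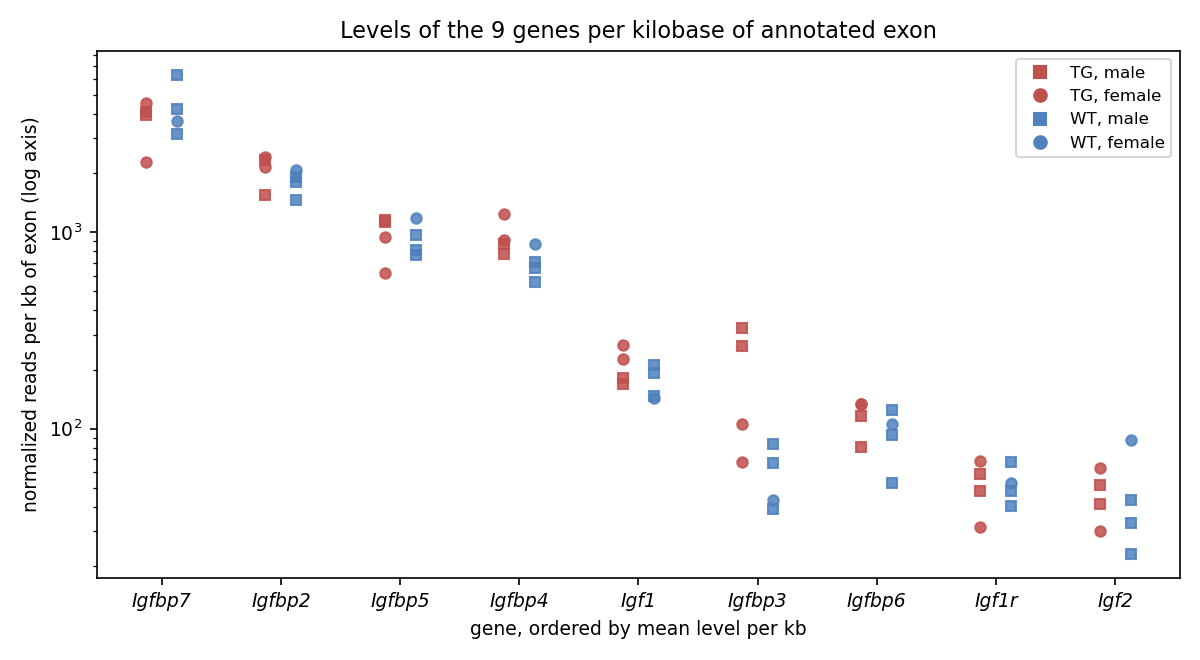
Normalized reads per kb of annotated exon (log axis) for each gene in the 8 libraries, TG in red and WT in blue, squares for males and circles for females. Igfbp7 averaged 4029 and Igf2 46.6 reads per kb, and Igfbp3 spread most, with its TG males above its other libraries.

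Together the 6 binding proteins had 19065 ± 2921 normalized reads in TG retinas and 17535 ± 2257 in WT retinas (SD, n = 4 each), a difference within the SD. Igfbp3 made up 3.06% ± 1.87 of these reads in TG and 1.06% ± 0.405 in WT. On the scale per kb, Igfbp7 made up 45.6% ± 5.97 of the binding protein level in TG and 54.0% ± 7.77 in WT. Igfbp4 made up 11.98% ± 2.57 of it in TG and 8.98% ± 2.12 in WT.

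Igf1 is the main survival ligand of the pair and lies on the plus strand of chr10:87858264-87937047. Igf1 had 1662, 1787, 2241 and 2654 normalized reads in TG 2, 5, 6 and 8, against 2094, 1456, 1909 and 1412 in WT 3, 4, 5 and 7. The TG females were the highest of all 8 libraries and the WT female the lowest, and the groups overlapped. The mean was 2086 ± 453 in TG and 1718 ± 337 in WT, and the difference on the log2(normalized reads + 1) scale was 0.28 (SE 0.19, 95% interval -0.13 to 0.68). The Igf1 difference was 0.15 without TG 8 and -0.06 in males only. Microglia and macrophages are a known source of Igf1, and their 14 markers, none at 0 in any library, all had a difference above 0. The summed level of these markers was 31527, 51834, 33800 and 22317 normalized reads in TG 2, 5, 6 and 8, against 31920, 23505, 22926 and 22931 in WT 3, 4, 5 and 7. TG 8, highest in Igf1, was the lowest in that sum. The part of these cells in the Igf1 values was not tested.

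Igf2, the growth factor of the fetus and of the choroid plexus, lies on the minus strand of chr7:142650768-142666816. Igf2 had 294, 236, 172 and 361 normalized reads in TG 2, 5, 6 and 8, against 132, 247, 190.2 and 500.1 in WT 3, 4, 5 and 7. The lowest and the highest library were both WT. The means were 266 ± 80.9 in TG and 267 ± 162 in WT, with a difference of 0.12 (SE 0.38, 95% interval -0.70 to 0.93). Igf2 overlaps the antisense gene Igf2os, Mir483 and the predicted gene Gm49394, and Igf1 overlaps the antisense gene Igf1os. No source used here states whether counting used strand, so reads of such partners cannot be told apart.

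Igf1r, the signalling receptor of both ligands, lies on the plus strand of chr7:67952257-68233667. Igf1r had 987, 813, 1145 and 533 normalized reads in TG 2, 5, 6 and 8, against 683, 1131, 805 and 890.1 in WT 3, 4, 5 and 7. The range of the WT retinas lay inside that of the TG retinas. The means were 869 ± 262 in TG and 877 ± 189 in WT, with a difference of -0.04 (SE 0.24, 95% interval -0.56 to 0.47). Without TG 6 and WT 3 the Igf1r difference was -0.31.

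**Figure D2:**
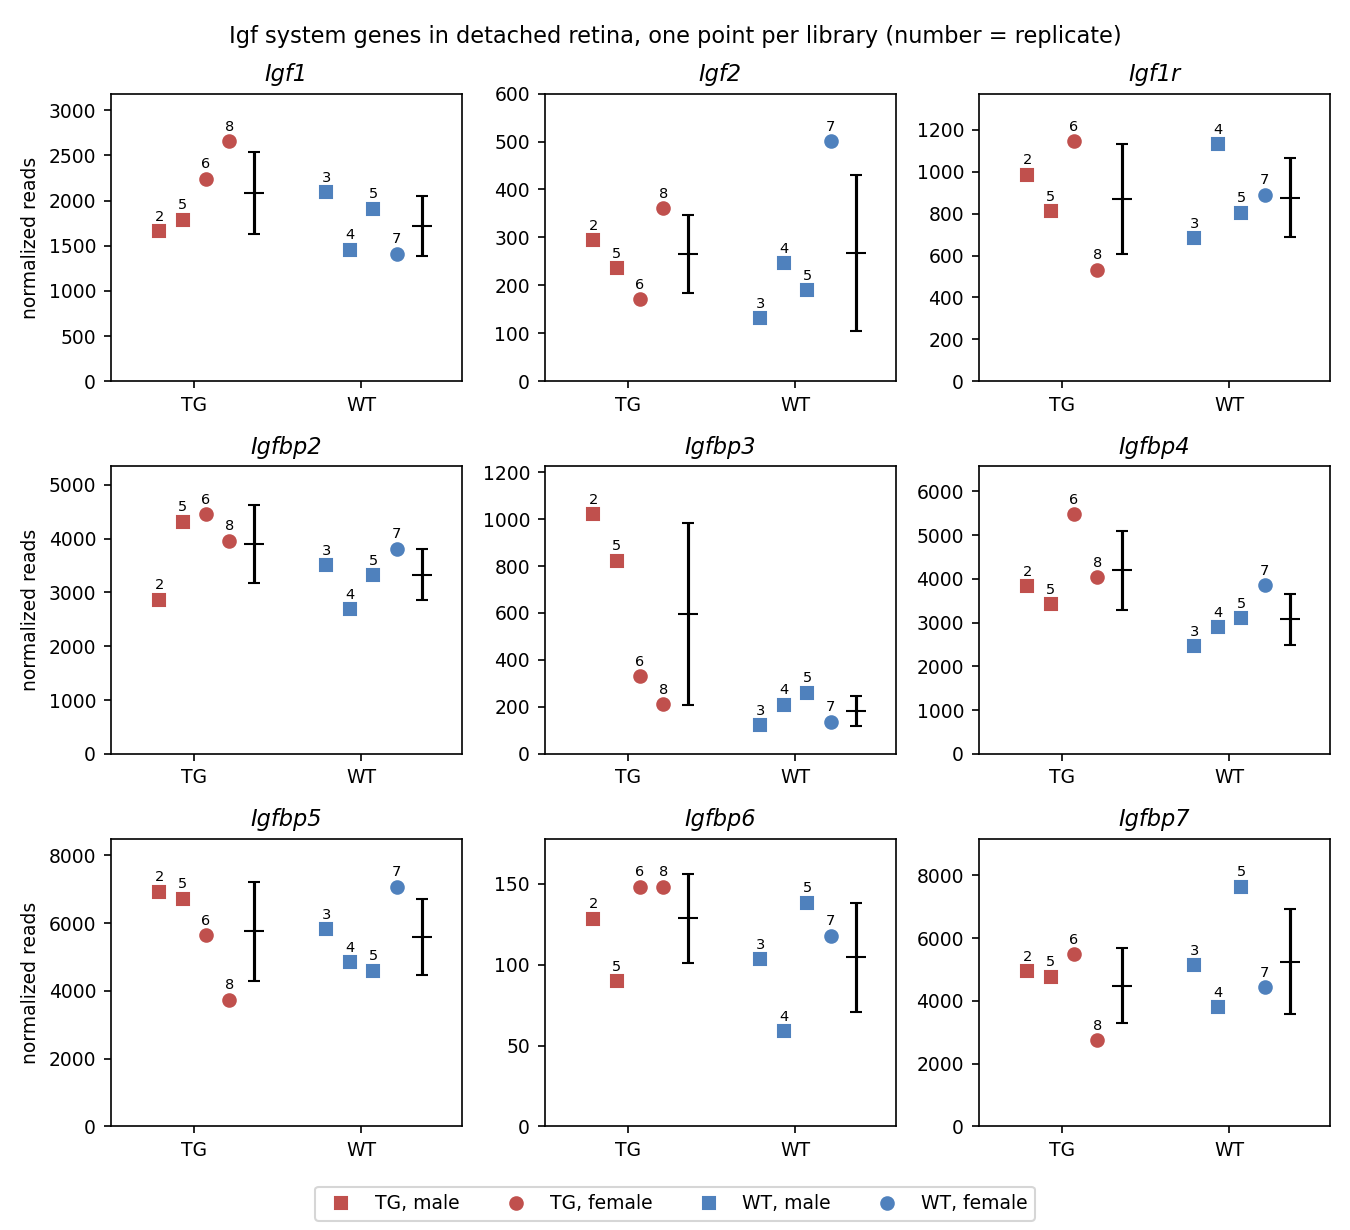
Normalized reads (linear axes from 0) of the 9 genes, with TG left of WT, 1 point per library labelled by its replicate number, squares for males and circles for females, and bars for the mean ± SD (n = 4 each). Igfbp3 reached 1021 and 822 in TG 2 and TG 5, against at most 261 in WT, and every panel shows overlap of the groups.

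Igfbp3 is the chief carrier of Igfs in blood, where it forms a complex with the acid-labile subunit, and it is also made by many tissues. It lies on the minus strand of chr11:7206095-7213923, behind the promoter with the TATA-like letters shown above. Igfbp3 had 1021, 822, 331 and 213 normalized reads in TG 2, 5, 6 and 8, against 123, 209.9, 261 and 136 in WT 3, 4, 5 and 7. The 2 TG males stood above the other 6 libraries, TG 6 was above all WT retinas, and TG 8 lay inside the WT range.

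The mean of Igfbp3 was 597 ± 387 in TG and 183 ± 64.8 in WT, a difference of 1.5 (SE 0.45, 95% interval 0.54 to 2.46). The highest library had 8.31 times the level of the lowest, the widest range among the 9 genes. With the males alone, 2 TG against 3 WT, the difference was 2.27, and with sex as a term it was 1.80. Leaving out 1 library at a time gave 1.15 to 1.90, and without TG 6 and WT 3, the libraries highest in lens markers, the Igfbp3 difference was 1.52.

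Some genes of other cell types were high in the same TG males. Spp1, a marker of activated microglia, had 2298, 2773, 779 and 919.9 normalized reads in TG 2, 5, 6 and 8, against 799, 798, 1499 and 1177 in WT 3, 4, 5 and 7. The fibrillar collagen gene Col1a1, chosen after its values were seen, had 643, 469, 51.9 and 14.6 in those TG libraries, against 135, 36.8, 77.2 and 45.8 in the WT libraries. Gpnmb, another such marker of activated microglia, had 1966, 3059, 2104 and 187 in the TG libraries, against 2199, 594, 378 and 1909.8 in the WT libraries, so it did not follow Igfbp3 in every library. Over the 6 markers of activated microglia, all with a difference above 0 and none at 0, the summed level was 1446 to 6468 in TG and 1660 to 3534 in WT. TG 2 and TG 5 were the highest in that sum as in Igfbp3. Over the 10 fibroblast markers, 8 had a difference above 0, the summed level was 1910 to 6301 in TG and 1948 to 3828 in WT, and Lum, Pdgfra, Ogn and Dpt were at 0 in at least 1 library. The highest fibroblast sum was in TG 6 and not in the TG males. The part of these cells in the Igfbp3 values was not tested.

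Igfbp4 holds Igfs away from the receptor until the protease Pappa cuts it, and lies on the plus strand of chr11:99041242-99054391. Igfbp4 had 3830.3, 3423, 5483 and 4043 normalized reads in TG 2, 5, 6 and 8, against 2456, 2895, 3103 and 3858 in WT 3, 4, 5 and 7. TG 6 was highest, the WT males were the 3 lowest, and the WT female lay inside the TG range. The mean was 4195 ± 897 in TG and 3078 ± 586 in WT, with a difference of 0.44 (SE 0.18, 95% interval 0.07 to 0.82). With sex as a term the difference was 0.34, and with males alone 0.37. Without TG 6 and WT 3, the highest and the lowest library of Igfbp4 and also those highest in lens markers, it was 0.20.

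Igfbp2, a binding protein made abundantly in brain and eye, lies on the plus strand of chr1:72824480-72852469. Igfbp2 had 2862, 4312, 4455 and 3956 normalized reads in TG 2, 5, 6 and 8, against 3509, 2687, 3316 and 3811 in WT 3, 4, 5 and 7. TG 5, 6 and 8 were above all WT retinas, and TG 2 was the lowest but 1 of the 8. The mean was 3896 ± 720.4 in TG and 3331 ± 475 in WT, with a difference of 0.22 (SE 0.17, 95% interval -0.14 to 0.58). The Igfbp2 difference was 0.36 without TG 2 and 0.12 without WT 4.

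Igfbp5, the family member with the most conserved sequence and a strong binder of matrix, lies on the minus strand of chr1:72857934-72874886. It is the tail-to-tail neighbour of Igfbp2, with 5464 bases between them. Igfbp5 had 6930.3, 6722, 5649 and 3736 normalized reads in TG 2, 5, 6 and 8, against 5821, 4844, 4602 and 7076 in WT 3, 4, 5 and 7. The lowest library was a TG female and the highest the WT female. The mean was 5759 ± 1461 in TG and 5586 ± 1124 in WT, with a difference of 0.02 (SE 0.20, 95% interval -0.41 to 0.46).

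Igfbp6, which binds Igf2 more tightly than Igf1, lies on the plus strand of chr15:102144186-102149511. Igfbp6 had 129, 89.8, 148 and 148 normalized reads in TG 2, 5, 6 and 8, against 103, 58.9, 138 and 118 in WT 3, 4, 5 and 7. The TG females were the highest and WT 4 the lowest. The mean was 129 ± 27.5 in TG and 105 ± 33.7 in WT, with a difference of 0.33 (SE 0.36, 95% interval -0.43 to 1.10). Without WT 4 the Igfbp6 difference was 0.083.

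Igfbp7 lies on the minus strand of chr5:77349240-77408046, behind the GC-rich promoter shown above, and overlaps Polr2b and Gm34648 on the opposite strand. Igfbp7 had 4941, 4773, 5493 and 2751 normalized reads in TG 2, 5, 6 and 8, against 5133, 3806, 7642 and 4434 in WT 3, 4, 5 and 7. WT 5 was the highest and TG 8 the lowest, and the other 6 libraries were mixed. The mean was 4489 ± 1199 in TG and 5254 ± 1682 in WT, with a difference of -0.22 (SE 0.24, 95% interval -0.73 to 0.29). The Igfbp7 difference was -0.0035 without TG 8, -0.026 without WT 5, -0.34 without TG 6 and -0.36 without WT 4. Vessel cells are a known source of Igfbp7. The summed level of 13 endothelial markers, none at 0 in any library, was 5371 to 9750 in TG and 6802 to 14132 in WT, highest in WT 7 and not in WT 5, and 3 of the 13 had a difference above 0. That of 10 mural cell markers, of which Abcc9 was at 0 in at least 1 library, was 16180 to 21693 in TG and 16402 to 24742 in WT. It was highest in WT 3, and 1 of the 10 had a difference above 0. The part of these vessel cells in the Igfbp7 values was not tested.

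Against all 19798 features with a mean of at least 10 normalized reads, limma called 0 of the 9 genes at an adjusted p under 0.05, where 0.0101% of features (2) were called. edgeR and DESeq2 on the recovered reads also called 0 of the 9, where they called 0.0101% and 0.0808% of features. The adjusted p of Igfbp3 was 0.918 by limma, 0.969 by edgeR and 0.056 by DESeq2. At an unadjusted p under 0.05 limma gave 2 of the 9, Igfbp3 and Igfbp4, both higher in TG, where 4.64% of features passed. Nothing is read from these counts, since the genes were chosen with the results known. Groups did not overlap in 0 of the 9 genes, where 2.53% of features had groups apart. The median difference over the 9 genes was 0.22, with 7 above 0 and 2 below (Igfbp5 was just below 0 with quantile normalization, Igf1r just above 0 with upper-quartile scaling, and Igf2 just below 0 in edgeR and DESeq2), against -0.02 over all features, with 9472 above 0 and 10326 below.

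**Figure D3:**
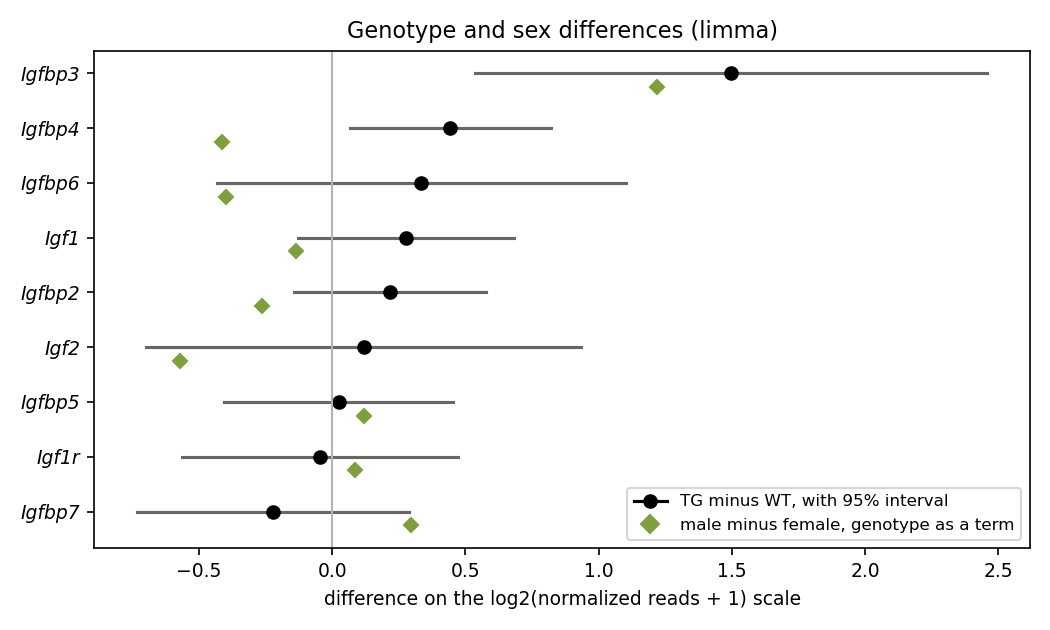
Differences of the 9 genes on the log2(normalized reads + 1) scale, with TG minus WT as black points with 95% intervals and male minus female, with genotype as a term, as green diamonds. The intervals of Igfbp3 (0.54 to 2.46) and Igfbp4 (0.07 to 0.82) lie above 0, and the sex difference has the sign of the genotype difference in Igfbp3 (1.22) and the opposite sign in Igfbp4 (-0.41).

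The rule that lists the genes does not use sex, which could be compared over 5 males and 3 females, with genotype as a term. The set was still proposed with results of these libraries known, so nothing is read from the counts for sex given here and below. limma called 0 of the 9 genes at an adjusted p under 0.05 (0.0303% of features, or 6, were called), and 2 of the 9 had an unadjusted p under 0.05, where 3.23% of features did. These were Igfbp3 and Igfbp4, in opposite directions. Igfbp3 averaged 487 ± 406 normalized reads in males and 227 ± 98.0 in females, a male minus female difference of 1.22 (SE 0.36, adjusted p = 0.999 by limma). Igfbp4 averaged 3141 ± 521 in males and 4461 ± 890.0 in females, a difference of -0.41 (SE 0.16, adjusted p = 0.999 by limma). Neither difference passed, and the high male mean of Igfbp3 came from the 2 TG males, since the WT males had 123 to 261 reads.

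Whether the genotype difference was unlike in males and females was asked with an interaction term, which rests on a single WT female. limma called 0 of the 9 genes (0.00505% of features, or 1, were called), and 3 of the 9 had an unadjusted p under 0.05, where 11.8% of features did. In Igfbp5 both TG males were above all WT males, while both TG females were below the WT female, and the male minus female contrast of the genotype differences was 1.05 (SE 0.33, adjusted p = 0.347 by limma). Igf1 gave -0.85 (SE 0.34, adjusted p = 0.392), with both TG females above the WT female and both TG males inside the range of the WT males. Igf2 gave 1.52 (SE 0.66, adjusted p = 0.411), and the interaction of Igfbp3 was 1.32 (SE 0.62, adjusted p = 0.427). None of these passed the limma test.

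The 9 genes did not vary together. The highest Pearson correlation between members over the 8 libraries was that of Igf1 with Igfbp6 (r = 0.60, Spearman's rho 0.67), and the lowest were those of Igf1 with Igf1r (r = -0.60, rho -0.43) and of Igf1 with Igfbp5 (r = -0.59, rho -0.64). All 8 points share their library, depth and tissue composition with every other gene, so these values describe the libraries only.

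The genes most like each member over the 8 libraries were sought among 12641 named genes with a mean of at least 50 normalized reads. For Igfbp3 they were Mcm3, a subunit of the DNA replication helicase (r = 0.96), Hmox1, the haem-degrading enzyme (r = 0.95), and Irf5, a transcription factor of macrophages (r = 0.94). Without TG 2 and TG 5, the libraries farthest from the median of Igfbp3, these correlations were 0.79, 0.70 and 0.76. Hmox1 had 3984, 4441, 1315 and 495 normalized reads in TG 2, 5, 6 and 8, against 657, 528, 788 and 418 in WT 3, 4, 5 and 7. TG 2 and TG 5 were its highest libraries, as in Igfbp3.

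For Igfbp4 the nearest genes were Rab38, a GTPase of pigment granule traffic (r = 0.96), Telo2 (r = 0.95) and the matrix protein gene Efemp1 (r = 0.94), for which r was 0.82, 0.78 and 0.92 without TG 6 and WT 3. For Igf1 they were Tmem185b, Tmem229a (both r = 0.96) and the imprinted gene Ndn (r = 0.95), at 0.93, 0.92 and 0.87 without TG 8 and WT 7. For Igf2 they included Habp4 (r = 0.99) and the junction protein gene F11r (r = 0.98). Here 162 genes reached r of at least 0.9, the most for any member, against 6 for Igfbp3.

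For Igfbp7 the nearest genes were Plp2 (r = 0.97), the respiratory subunit gene Cox5b (r = 0.95) and the blood cell transcription factor gene Lyl1 (r = 0.94), and Plp2 had r = 0.76 without TG 8 and WT 5. For Igfbp5 they included Itpripl2 and Lamp2, a lysosomal membrane protein gene (both r = 0.95). For Igfbp2 they were Oaz2, Ttc27 (both r = 0.96) and Abca9 (r = 0.93). For Igfbp6 they were Npm1 (r = 0.97), Eva1c (r = 0.96) and a feature that joins Rabggtb with 2 small nucleolar RNA genes (r = 0.95). For Igf1r they were Tcof1 (r = 0.96), which kept r = 0.98 without TG 8 and TG 6, Ints9 (r = 0.96) and Cfap57 (r = 0.94).

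The members act with a wider set of proteins, and 83 further genes of Igf signalling were taken from textbook knowledge and grouped by role. Of these 80 were tested, and Igfals, Igf2bp1 and Igf2bp3 were below the minimum mean. limma called 0 of the 80 in TG against WT, against 0.0101% of all features, and edgeR and DESeq2 called 0 as well. At an unadjusted p under 0.05, 4 of the 80 were higher in TG, against 2.02% of features, and 4 were lower, against 2.62%. The median difference was -0.12, with 26 genes above 0 and 54 below, against -0.02 over all features. For each role, genes with the smallest unadjusted p-values are given below as values that did not pass the test.

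Upstream of the receptor, the proteases and protease inhibitors that set how much Igf the binding proteins release had a median difference of 0.41, with 4 of 6 genes above 0. Those below 0 were Pappa, at 69.8 ± 7.60 in TG and 83.7 ± 33.2 in WT (-0.17, SE 0.41), and Stc1 (-0.085, SE 0.25). Htra1, a secreted serine protease that can cut Igf binding proteins, had 4035, 4959, 3681 and 4904 normalized reads in TG 2, 5, 6 and 8, against 3256, 3048, 3030.0 and 3226 in WT 3, 4, 5 and 7. Every TG retina was above every WT retina, and the difference was 0.47 (SE 0.13, adjusted p = 0.918 by limma). Groups were apart in this direction in 1.36% of features. Stc2, an inhibitor of Pappa, averaged 283 ± 57.4 in TG and 157 ± 117 in WT, a difference of 1.09 (SE 0.42). Its groups overlapped, since the WT female had 328 reads, above all TG retinas, while WT 3, 4 and 5 had 60.4, 121 and 118. With genotype as a term, its male minus female difference was -0.94 (SE 0.39).

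Among the other carriers, Igfbp1, a binding protein made mainly by liver and the tail-to-tail neighbour of Igfbp3 with 3548 bases between them, was near the detection limit. Igfbp1 had 16.0, 8.81, 34.6 and 0 normalized reads in TG 2, 5, 6 and 8, against 34.8, 16.6, 42.3 and 5.85 in WT 3, 4, 5 and 7. The order of its TG libraries was not that of Igfbp3. Igfbpl1 averaged 58.4 ± 20.9 in TG and 72.1 ± 14.7 in WT.

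Of the other receptors, Igf2r, which clears Igf2 by taking it to lysosomes, had 271, 220.1, 180.3 and 209.7 normalized reads in TG 2, 5, 6 and 8, against 483, 272, 284 and 295 in WT 3, 4, 5 and 7. Every TG retina was below every WT retina, which was so in 1.16% of features, and the difference was -0.57 (SE 0.26), or -0.29 without TG 6 and WT 3 (-0.38 without WT 3 alone). The highest TG and lowest WT libraries were 271 and 272 reads. The insulin receptor gene Insr averaged 104 ± 66.1 in TG and 194 ± 116 in WT, a difference of -0.98 (SE 0.55). The Insr difference was -0.49 without TG 8, -0.64 without WT 7 and 0.21 in males only, where its direction turned.

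Inside the cell, the median differences were -0.16 over the 10 adaptors, -0.16 over the 10 genes of PI3K and Akt, -0.17 over the 6 phosphatases and -0.11 over the 10 genes of the mTOR arm. Grb10, an adaptor that restrains the receptor, averaged 269 ± 89.8 in TG and 407 ± 130 in WT. Sos1, which activates Ras, averaged 352 ± 102 in TG and 491 ± 89.0 in WT. Pdpk1, the kinase that activates Akt, averaged 94.7 ± 94.0 in TG and 240 ± 127 in WT, a difference of -1.85 (SE 0.77). The Pdpk1 difference was -0.99 without TG 6 and -0.30 in males only.

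The phosphatase gene Phlpp2 averaged 156 ± 87.6 in TG and 290 ± 145 in WT. The mTOR partner genes Rptor and Rictor differed by -1.24 (SE 0.49) and -1.0 (SE 0.50), and Rictor by -0.55 without TG 6. In males only the differences were -0.56 for Rptor, -0.33 for Rictor and -0.11 for Phlpp2. In Phlpp2, Rptor and Rictor the groups overlapped. These genes, like Grb10, Sos1 and Pdpk1, have at least 8000 exon bases, and the median difference of all such genes was -0.16.

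At the end of the Akt arm, several but not all FoxO factors are held out of the nucleus by Akt. Foxo6 averaged 267 ± 54.3 in TG and 172 ± 43.5 in WT, a difference of 0.65 (SE 0.28), and Foxo4 differed by -0.48 (SE 0.29), or -0.26 without TG 8 and -0.099 in males only. Among 8 FoxO target genes, Trib1 had groups apart with TG higher, as in 1.36% of all features, and Cdkn1b with TG lower, as in 1.16%. Trib1 had 2796, 3693, 3028 and 2883 normalized reads in TG 2, 5, 6 and 8, against 1940.5, 2189, 2264 and 2515 in WT 3, 4, 5 and 7, a difference of 0.47 (SE 0.14). The cell cycle inhibitor gene Cdkn1b averaged 6129 ± 1054 in TG and 7725 ± 767 in WT, a difference of -0.35 (SE 0.15). Its highest TG library had 7046 reads and its lowest WT library 7150. Neither gene passed the limma test across all features, with an adjusted p of 0.918 each.

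In the Ras and MAP kinase arm the 9 genes had a median of 0.02 and lay between -0.25 and 0.21, the tightest range of the roles with more than 3 genes tested. Map2k2 differed by 0.21 (SE 0.15), or 0.36 without WT 5. Ghr, the growth hormone receptor gene, whose signal induces Igf1 in liver, averaged 83.9 ± 18.6 in TG and 43.2 ± 28.3 in WT, and its groups were apart with TG higher, as in 1.36% of all features. WT 3 held 2.0 reads of Ghr, and the Ghr difference was 1.6 with all libraries and 0.62 without TG 6 and WT 3 (0.54 without WT 3 alone). Stat5b, a transcription factor it activates, averaged 321 ± 157 in TG and 359 ± 93.6 in WT. Igf2bp2, an RNA-binding protein of Igf2 mRNA, averaged 86.9 ± 64.3 in TG and 119 ± 46.5 in WT. H19, the noncoding neighbour imprinted opposite to Igf2, averaged 145 ± 64.7 in TG and 158 ± 91.4 in WT.

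**Figure D4:**
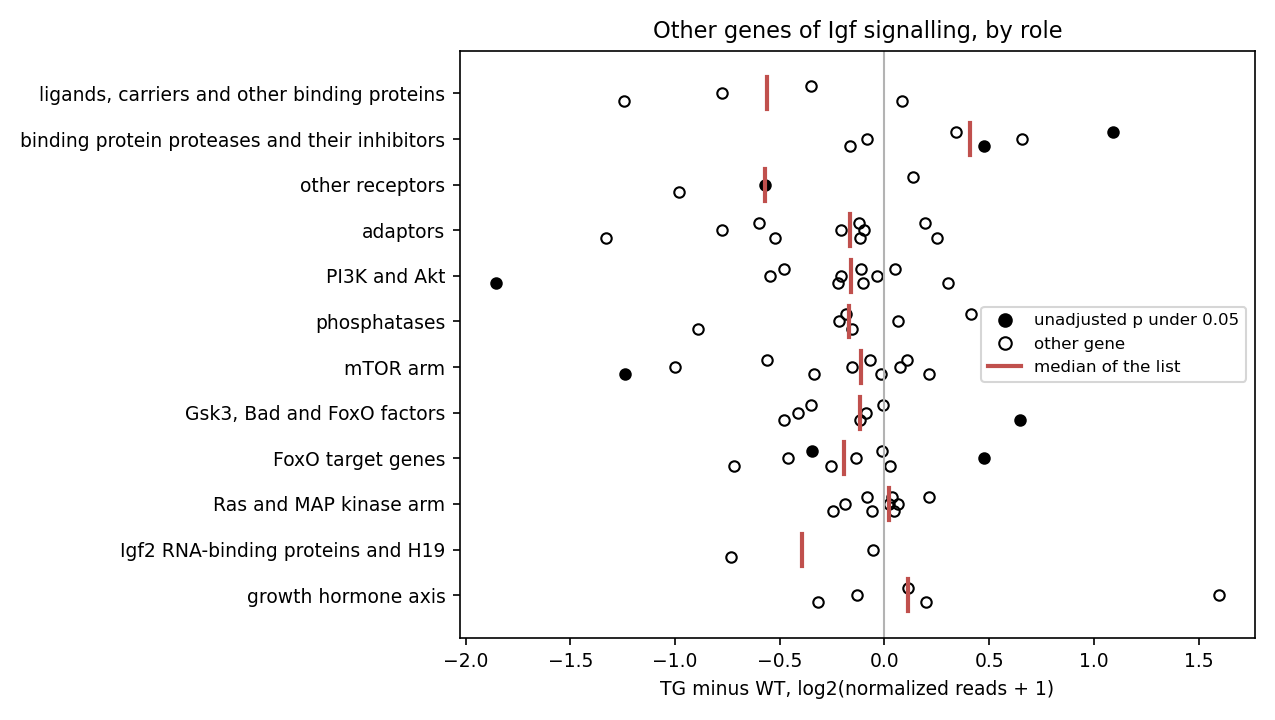
TG minus WT difference on the log2(normalized reads + 1) scale for the 80 tested genes of Igf signalling, grouped by role, with filled circles for an unadjusted p under 0.05, open circles for the others and red bars for the median of each role. Medians run from -0.57 for the other receptors to 0.41 for the proteases and their inhibitors, and no gene passed the adjusted test.

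Long and short transcripts differed in level between libraries. In each library the median log2 deviation of genes with at least 8000 exon bases, minus that of genes under 2000 bases, was 0.27, -0.07, -0.46 and -0.24 in TG 2, 5, 6 and 8, against -0.05, 0.39, -0.28 and 0.39 in WT 3, 4, 5 and 7. Over all genes the median TG minus WT difference was -0.16 for the 2637 long genes and 0.06 for the 2450 short ones. Of the pathway genes, the 24 with at least 8000 exon bases had 4 above 0 and 20 below (median -0.34), and the 53 with at least 2000 and under 8000 bases had 22 above and 31 below (median -0.06). The 3 pathway genes under 2000 bases, Ins2, Igfbp1 and Rps6, were all below 0 in limma (median -0.77). That median is the value of Ins2, which had 0 reads in TG 6 and TG 8. Its difference was 0.39 in edgeR and 0.35 in DESeq2. Igfbp1 was near the detection limit, and Rps6 differed by -0.015, so this class is not set against the short genes overall. The length classes were set after the data were seen, and the part of length in these differences was not tested. Of the pathway genes with values above, Pappa, Igf2r, Insr, Grb10, Sos1, Pdpk1, Phlpp2, Rptor and Rictor, all below 0, are in the long class. So is Ghr, which was above 0. Igf1, at 9904 exon bases, and Igf1r, at 16791, are the members of the long class, and the binding proteins have 1112 to 6006 exon bases.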

How the data were processed

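The members and gene lists were chosen with earlier results of these data known. The deposited values are read counts that the authors divided by DESeq2 size factors (a signal), per the submitters' processing notes. These notes also list FastQC, Picard, SAMtools and STAR 2.4.0, on mm10 (GRCm38). No source used here states the counting tool, its use of strand or the annotation. RNA was polyA-selected and libraries kept strand, per the labels' protocols. All values were whole reads within 0.01, so reads could be recovered. Columns left unmapped numbered 0, and the lowest chi-square per feature between libraries was 46.1.

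The test was limma 3.58.1 (R 4.3.3) with trended variance on log2(value + 1), over 19798 features whose mean reached 10, with Benjamini-Hochberg adjustment at 0.05. On this scale a difference can come out smaller or larger than in a count test where libraries are low or uneven. It was 1.5 for Igfbp3, 1.6 for Ghr and -1.85 for Pdpk1 by limma, against 1.71, 0.96 and -1.34 by DESeq2. Errors beside group values are SDs, and beside differences SEs. The labels do not state outright that each retina came from another mouse. WT 3, WT 4 and WT 5 were right eyes of males, and WT 7 was a left eye of a female. The TG males were a left and a right eye, as were the TG females, so either pair could share a mouse. The p-values reflect only the spread between samples, part of which may be technical. Sex and interaction terms came from further fits. edgeR 4.0.16 (quasi-likelihood) and DESeq2 1.42.0 ran on recovered reads. The fit was tested on simulated data. Gene positions, exon lengths (known for 96.7% of 15873 symbols) and overlaps are from GENCODE M21. Named genes were all members, the 2 smallest p-values in each pathway role, the 3 genes most correlated with each member, and the 2 most abundant markers of each list, of which a part is named. Col1a1, Pappa, Stc1, Ins2 and Rps6 fall outside this rule. Some genes that it takes are not reported here.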

Additional observations from a re-analysis of the deposited data

Results flagged for a closer look

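Of 66 sets of 4 libraries checked among the members and named pathway genes, 3 held a library that stood apart from the other 3 by Dixon's criterion at 95%, and chance gives about 1 in 20. None was a member. The Pappa inhibitor gene Stc2 had 197 normalized reads in TG 5, against 303 to 319 in the other TG retinas. The MAP kinase kinase gene Map2k2 had 8769 in WT 5, against 5903 to 5931 in the other WT retinas. The Igf2 clearance receptor gene Igf2r had 483 in WT 3, against 272 to 295 in the other WT retinas.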

How the results depend on the processing

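No paired analysis was possible because no label pairs a TG retina with a WT retina. The members called and the pathway genes called stayed at 0 under all 23 alternatives (other scalings, pseudocounts, filters, terms, males only, libraries left out, count tests). Among them the lowest adjusted p of Igfbp3 was 0.056, by DESeq2. The count of features higher in TG was 1, and was 0 with a pseudocount of 0.5, no filter, a minimum mean of 50, sex as a term or no variance trend, 9 with DESeq2, and 0 to 2 with 1 library left out (0 without any 1 of TG 2, TG 5, TG 6, TG 8, WT 4 and WT 5, and 2 without WT 3). The count lower in TG was 1, and was 3 in males only, 7 with DESeq2 and 1 to 2 with 1 library left out (2 without TG 6). The male against female count of 6 was 14 with DESeq2 and 5 to 6 with 1 library left out. Igfbp2, Igfbp3, Igfbp4, Igfbp6 and Igfbp7 kept their sign in all 23, though with 1 library left out Igfbp7 came to -0.0035 (without TG 8) and Igfbp6 to 0.083 (without WT 4). The sign of the other members changed, in 1 alternative for Igf1 (-0.06 in males only), 5 for Igf2, 6 for Igfbp5 and 4 for Igf1r. Igfbp5 was farthest from its 0.02 in males only (0.43), where its sign held. With 1 library left out, Igf2 ran from -0.16 (without WT 3) to 0.48 (without WT 7), Igf1r from -0.20 (without TG 6) to 0.17 (without TG 8) and Igfbp5 from -0.08 (without TG 2) to 0.22 (without TG 8). Pathway genes that changed sign were Igf2bp2 (0.36), Insr (0.21), Stat5b (0.16) and H19 (0.59) in males only, Stat5b (0.17) and H19 (0.39) without both WT 3 and TG 6, and H19 with sex as a term (0.053) or the pigment epithelium level as a term (0.065). With 1 library left out, Stat5b ran from -0.56 to 0.15 and H19 from -0.36 to 0.28. The cause was not tested. Other scalings left the median of all features between -0.02 and 0.03. With 4 retinas per group, the SE of a member's difference was 0.17 to 0.45 on the log2 scale, which limits what could be detected.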
